A study of Mus musculus with 8 samples.

Results

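The endoplasmic reticulum (ER) folds the proteins that the liver secretes into plasma, and 31 mouse genes that fold, oxidise or discard such proteins, or that signal when folding falls behind, were examined in fasted liver. The 31 genes were taken by name from a list of members. All 31 were among the 19938 genes that an array probe set naming a single gene could measure. By role they comprised 6 sensors and signalling genes, 11 chaperones and cochaperones, 4 disulfide isomerases and oxidases, 9 degradation factors and 1 subunit of the translocon, the pore through which proteins enter the ER. Each gene was read from the probe set with the highest mean over the 8 arrays.

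Liver RNA of C57BL6 mice was hybridised to Affymetrix Mouse Gene 1.0 ST arrays, which report a log2 signal for each transcript. In the hydrogen water group (4 arrays), mice drank water with dissolved molecular hydrogen for 4 weeks, starting at 7 weeks of age. The control group (4 arrays) is told apart by sample titles only, because the treatment text is the same for all 8 samples. All 8 livers were taken after 17 h without food, so fasting was shared by both groups. Sex, the water given to controls, and whether each array is a separate animal are not stated outright; p-values otherwise measure the spread between these samples. The labelled tissue fitted its markers: albumin (Alb) stood between 14.29 and 14.47 on every array, and 7 of 7 hepatocyte markers were above the median level of all genes (5.87).

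When unfolded protein accumulates in the ER, 3 membrane sensors respond. IRE1 (Ern1) splices the messenger of the transcription factor Xbp1, PERK (Eif2ak3) slows translation by phosphorylating eIF2alpha, and ATF6 moves to the Golgi, where cleavage frees its transcription factor domain. Xbp1 and ATF6 then raise chaperones and degradation factors, and Ppp1r15a and Ppp1r15b direct the phosphatase that reverses the PERK step. Splicing, phosphorylation and cleavage are not read by these arrays, which measure total transcript. Hepatocytes use this response at a low level in normal secretion and more strongly after feeding or lipid load.

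The best-known promoter target of ATF6 is the ER stress response element (ERSE), in which NF-Y binds CCAAT and ATF6 binds CCACG. The exact letters CCAAT, then 9 bases of any kind, then CCACG were searched on both strands in the 250 bases before each annotated start in RefSeq (GRCm38.p6). Of 26 members in the promoter table, 10 held an exact match (38.5%). Of all 27025 genes in it 0.13% held one, and of all 32851 promoter windows of the same length 0.113%. The matches with their flanks are printed for the 10 members that hold this element. Capitals mark the fixed letters, read 5′ to 3′ on the strand of the gene. A match on the other strand appears as CGTGG followed by ATTGG.
Hspa5, chr2:34772010-34772058, plus strand: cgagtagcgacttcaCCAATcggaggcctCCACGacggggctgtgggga
Hsp90b1, chr10:86705518-86705671, minus strand: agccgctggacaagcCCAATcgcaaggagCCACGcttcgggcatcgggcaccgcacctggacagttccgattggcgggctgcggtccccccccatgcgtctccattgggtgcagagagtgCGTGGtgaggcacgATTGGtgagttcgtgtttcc
Dnajc3, chr14:118937812-118937860, plus strand: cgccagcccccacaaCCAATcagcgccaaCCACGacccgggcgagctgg
Calr, chr8:84847060-84847108, minus strand: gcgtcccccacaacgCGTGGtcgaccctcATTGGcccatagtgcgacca
Canx, chr11:50325785-50325833, minus strand: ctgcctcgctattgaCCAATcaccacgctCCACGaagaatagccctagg
Creld2, chr15:88819505-88819553, plus strand: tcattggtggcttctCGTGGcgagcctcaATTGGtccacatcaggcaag
Pdia6, chr12:17266476-17266524, plus strand: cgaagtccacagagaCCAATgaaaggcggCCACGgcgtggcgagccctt
Ero1b, chr13:12565667-12565715, plus strand: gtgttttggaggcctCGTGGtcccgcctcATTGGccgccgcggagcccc
Syvn1, chr19:6046517-6046565, plus strand: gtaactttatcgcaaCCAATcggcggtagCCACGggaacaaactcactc
Derl3, chr10:75893227-75893275, plus strand: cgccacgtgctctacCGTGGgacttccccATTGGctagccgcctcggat

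The related element ERSE-II was searched as ATTGG, 1 base of any kind and CCACG on both strands. It was found in 1 of the 26 members, in 0.037% of all genes and in 0.0304% of all windows. That member was Herpud1, which holds it at positions −52 to −42 from its start.
Herpud1, chr8:94386362-94386402, plus strand: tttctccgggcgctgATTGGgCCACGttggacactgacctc
The UPRE core TGACGTGG, a binding site of spliced Xbp1, was found in 0 of the 26, in 0.603% of all genes and in 0.563% of all windows. The single box CCACG, which every ERSE and ERSE-II contains, was found in 18 of the 26, in 31% of all genes and in 28.3% of windows. Atf6, Hyou1, Manf, Derl1 and Ppp1r15b were not in the table. A match describes these letters and is not a measured binding site.

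**Figure D1:**
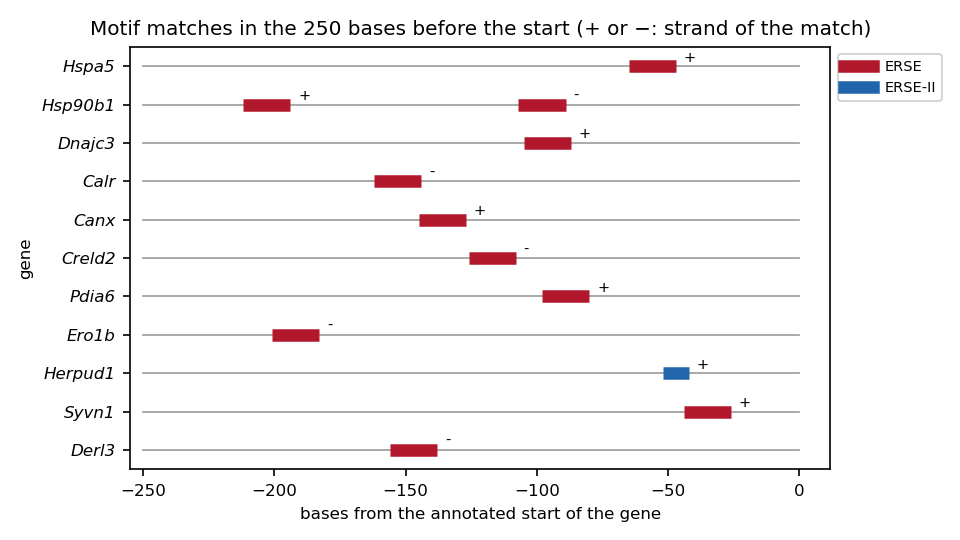
Position of each exact ERSE (red) and ERSE-II (blue) match, in bases from the annotated start of the gene, with the strand of the match beside it. All matches of the 11 genes lie between positions −212 and −26, and Hsp90b1 holds 2.

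Between the groups, 0 of the 31 genes reached an adjusted p under 0.05 (limma, adjusted by Benjamini-Hochberg for 19938 genes), and the lowest was 0.651. Mean signal was lower with hydrogen water in 27 of 31 genes (87.1%), beside 51.3% of all genes and 48.5% of genes above the median level. These genes vary together from array to array, so the 27 are not independent observations. In whole liver, fewer cells of a type and less RNA per cell cannot be told apart. The median difference, hydrogen water minus control, was −0.09 on the log2 scale over the 31 genes and −0.00 over all genes. At an unadjusted p under 0.05 there were 2 members, Dnajb9 and Pdia4 (6.45%), beside 7.17% of all genes and 9.5% of genes above the median level, and at the adjusted threshold 0 members beside 0% of all genes. The values of the groups did not overlap in 1 member, Xbp1 (3.23%), beside 3.76% of all genes and 4.2% of those above the median level. The shares at that p and without overlap were not above those of all genes.

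**Figure D2:**
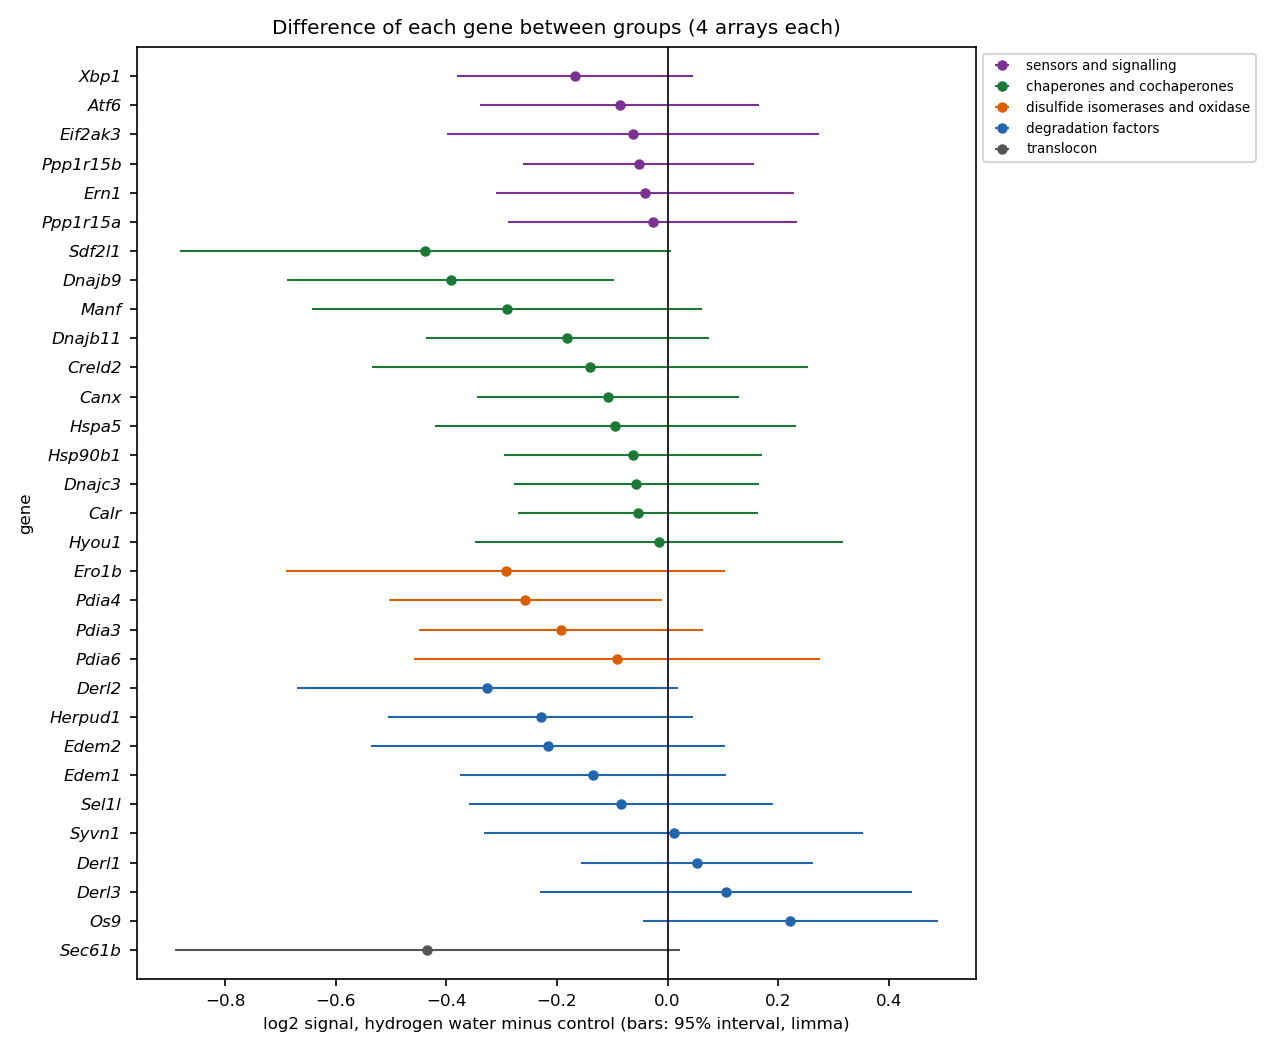
Difference in log2 signal of each of the 31 genes, hydrogen water minus control, with its 95% interval from limma (4 arrays per group), ordered within roles. The interval lies wholly below 0 for Dnajb9 and Pdia4, and 4 degradation factors (Syvn1, Derl1, Derl3 and Os9) lie to the right of 0.

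The count at an unadjusted p under 0.05 moved with single arrays. Control 3 was the array least like the rest of its group over all genes, with a mean correlation of 0.989 beside 0.992 to 0.994 for the other 7 arrays. Without control 3, 7 of 31 members had an unadjusted p under 0.05, beside 8.57% of all genes. Without hydrogen water 4 there were 5 of 31, beside 5.59% of all genes, and without both arrays there were 12 of 31, beside 7.55%. Those 12, all lower with hydrogen water, were Hspa5, Dnajb9, Dnajb11, Sdf2l1, Manf, Pdia4, Ero1b, Herpud1, Edem1, Edem2, Derl2 and Sec61b. Leaving out both arrays was chosen after the data were seen. Hydrogen water 4 held the highest hydrogen water value in 21 members and control 3 the lowest control value in 18. For those members, leaving that array out by itself lowers the difference, hydrogen water minus control. With array weights, which give control 3 the lowest weight (0.424), 11 of 31 members were at that p, beside 10.4% of all genes. Leaving out hydrogen water 3, control 1 or control 2 left 1 of 31, Dnajb9, beside 4.8%, 6.13% and 5.69% of all genes. In each of these settings 0 members had an adjusted p under 0.05. Groups did not overlap in 9 of 31 members without both arrays, beside 12.4% of all genes with 3 arrays a group. Without hydrogen water 4 they did not overlap in 5 of 31, beside 6.18%.

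All 6 sensors and signalling genes had a lower mean with hydrogen water, by a median of 0.06, and 0 had an unadjusted p under 0.05. Ern1, the IRE1 sensor (transcript cluster 10392183, chromosome 11), had log2 signals of 8.71, 8.74, 8.83 and 9.0 with hydrogen water, against 9.09, 8.99, 8.67 and 8.70 in controls. The groups overlapped fully, with controls both highest and lowest, and the difference was −0.04 (95% interval −0.31 to 0.23). Eif2ak3, the PERK sensor (10538939, chromosome 6), had 6.83, 6.87, 7.11 and 7.16 with hydrogen water, against 7.02, 7.38, 6.63 and 7.19 in controls. Control 2 was the highest array and control 3 the lowest, and the difference was −0.06 (95% interval −0.40 to 0.27). Atf6 (10359982, chromosome 1) had 9.71, 9.98, 9.93 and 10.18 with hydrogen water, against 10.01, 9.94, 10.05 and 10.16 in controls. Hydrogen water 1 was low and hydrogen water 4 high, with the controls between them, and the difference was −0.09 (95% interval −0.34 to 0.17).

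Xbp1, the transcription factor whose messenger IRE1 splices (10374035, chromosome 11), was the 1 member whose groups lay apart. Its log2 signals were 11.26, 11.49, 11.34 and 11.50 with hydrogen water, against 11.60, 11.62, 11.51 and 11.53 in controls. The highest hydrogen water array and the lowest control nearly touched. The hydrogen water arrays averaged 11.40 ± 0.12 and the controls 11.57 ± 0.05 (SD, n = 4 each), which differ by −0.17 (95% interval −0.38 to 0.05; limma adjusted p = 0.762). With quantile normalization the groups of Xbp1 overlapped too, leaving 0 members without overlap, beside 5.03% of all genes. Ppp1r15a, the stress-induced phosphatase subunit also known as GADD34, had 7.09, 6.58, 6.96 and 6.76 with hydrogen water, against 6.85, 6.95, 6.90 and 6.79 in controls. Hydrogen water arrays were both highest and lowest, and the difference was −0.03 (SE 0.12). Ppp1r15b, the constitutive subunit, differed by −0.05 (SE 0.10), and its dimmer probe set by 0.01.

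**Figure D3:**
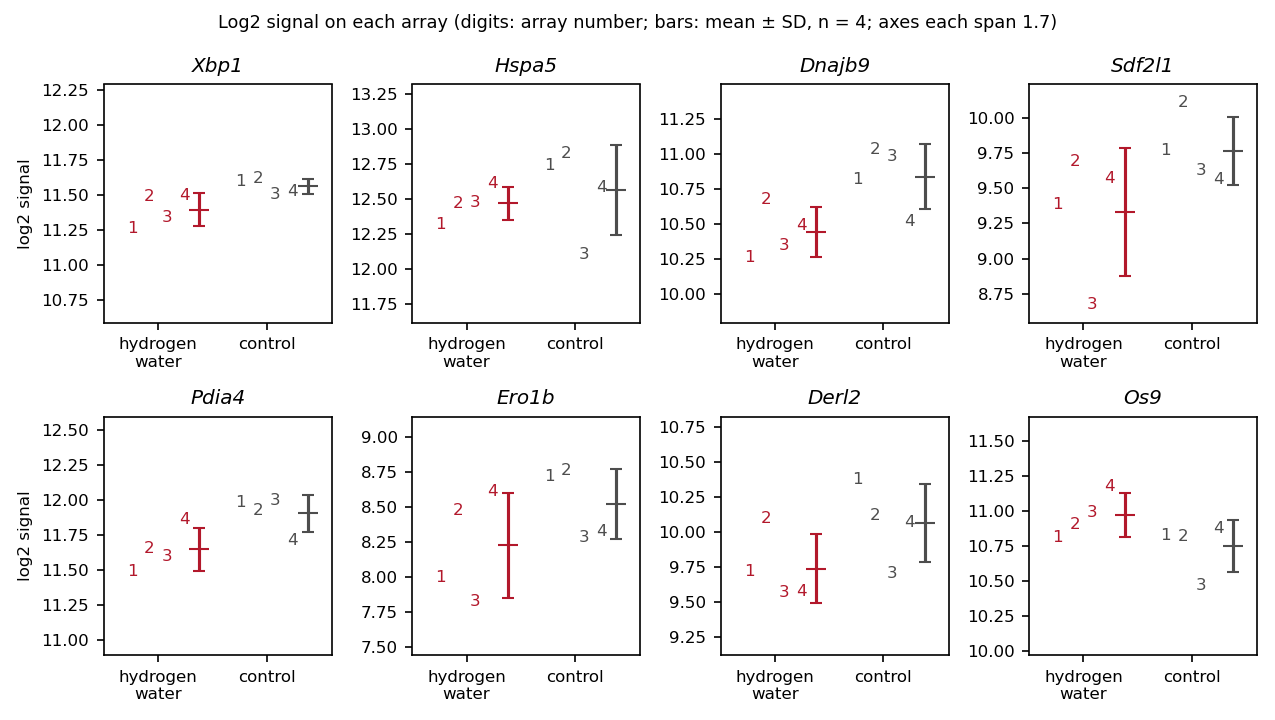
Log2 signal of 8 members on each array, with digits for the array number, hydrogen water in red on the left and control in grey on the right, and bars for the mean ± SD (n = 4). Each axis spans the same width; the groups of Xbp1 lie just apart, while hydrogen water 3 is the low array of Sdf2l1 and control 3 the low array of Hspa5.

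All 11 chaperones and cochaperones had a lower mean with hydrogen water, by a median of 0.11, and 1 of them had an unadjusted p under 0.05. Hspa5, also called BiP, is the main HSP70 of the ER and keeps the sensors inactive (10471586, chromosome 2). It had 12.32, 12.47, 12.48 and 12.62 with hydrogen water, against 12.74, 12.83, 12.11 and 12.58 in controls. Control 3 was below every other array, and the group difference was −0.09 (95% interval −0.42 to 0.23; limma adjusted p = 0.931). Without control 3 it was −0.25, and without control 2 −0.01. Dnajb9 (ERdj4, 10400137, chromosome 12), a J protein that directs Hspa5 to its clients, had 10.26, 10.67, 10.35 and 10.49 with hydrogen water, against 10.82, 11.03, 10.98 and 10.51 in controls. Control 4 lay among the hydrogen water arrays and the other controls above them. The hydrogen water arrays averaged 10.44 ± 0.18 and the controls 10.83 ± 0.23 (SD, n = 4 each), which differ by −0.39 (SE 0.14; limma unadjusted p = 0.0136, adjusted p = 0.651). It was the member with the lowest p, and it ranked 414 among the 19938 genes by p.

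Sdf2l1, which joins the J protein Dnajb11 at unfolded clients, had the most negative difference of the 31 genes. It had 9.38, 9.69, 8.67 and 9.57 with hydrogen water, against 9.77, 10.11, 9.63 and 9.57 in controls. Hydrogen water 3 was far below the rest, and the difference of −0.44 (SE 0.20; limma adjusted p = 0.697) was −0.22 without it. Manf, a small secreted protein induced by ER stress, had 7.76, 7.77, 8.01 and 8.13 with hydrogen water, against 8.35, 8.58, 7.80 and 8.09 in controls. Controls 1 and 2 were above all other arrays and control 3 lay among the low hydrogen water arrays, with a difference of −0.29 (SE 0.16). Hyou1, a large HSP70 relative that exchanges nucleotide on Hspa5, was nearest to 0 of the chaperones. It had 10.19, 10.34, 10.03 and 10.44 with hydrogen water, against 10.42, 10.51, 9.83 and 10.30 in controls. Control 3 was again the lowest array, and the difference was −0.02 (SE 0.15).

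The other 6 chaperones differed by between −0.18 and −0.05. Dnajb11, which binds unfolded clients ahead of Hspa5, differed by −0.18 (SE 0.12). Creld2, an ER resident induced with Manf, differed by −0.14 (SE 0.18), with controls from 9.83 to 10.62. The lectin chaperones calnexin (Canx) and calreticulin (Calr), which hold glycoproteins, differed by −0.11 (SE 0.11) and −0.05 (SE 0.10). Hsp90b1, the HSP90 of the ER, differed by −0.06 (SE 0.11) and Dnajc3 (p58IPK), a J protein partner of Hspa5, by −0.06 (SE 0.10). The table holds Dnajc3 under 2 probe sets with identical values on all 8 arrays.

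The 4 disulfide isomerases and oxidases all had a lower mean with hydrogen water, by a median of 0.23. Pdia4 (ERp72, 10544525, chromosome 6), an isomerase with several thioredoxin-like domains, had 11.49, 11.65, 11.60 and 11.86 with hydrogen water, against 11.98, 11.93, 12.00 and 11.71 in controls. Hydrogen water 4 and control 4 crossed, and the remaining 3 arrays of each group lay apart. Its difference was −0.26 (SE 0.11; limma unadjusted p = 0.0421, adjusted p = 0.687), and a dimmer probe set of the gene differed by −0.20. Ero1b, the oxidase that recharges the isomerases, was the most negative at −0.29 (SE 0.18). It had 7.99, 8.48, 7.83 and 8.61 with hydrogen water, against 8.71, 8.76, 8.28 and 8.33 in controls, so that hydrogen water 1 and 3 lay below all controls and hydrogen water 2 and 4 among them. Pdia3 (ERp57), the isomerase that works with calnexin and calreticulin, differed by −0.19 (SE 0.12). Pdia6 (P5) was nearest to 0, with 10.07, 9.89, 9.58 and 9.84 with hydrogen water, against 10.11, 10.29, 9.47 and 9.89 in controls. Control 3 was its lowest array, and the difference was −0.09 (SE 0.17).

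The 9 degradation factors were split, with 5 lower and 4 higher in mean with hydrogen water (median −0.08), and 0 had an unadjusted p under 0.05. Derl2, a derlin of the channel that returns misfolded proteins to the cytosol, was the most negative. It had 9.72, 10.10, 9.57 and 9.58 with hydrogen water, against 10.38, 10.12, 9.70 and 10.07 in controls. Hydrogen water 2 stood among the controls and control 3 among the hydrogen water arrays, and the difference was −0.33 (SE 0.16; limma adjusted p = 0.709). Os9, a lectin that hands misfolded glycoproteins to the ubiquitin ligase, was the most positive. It had 10.81, 10.91, 10.99 and 11.18 with hydrogen water, against 10.83, 10.82, 10.47 and 10.88 in controls. Control 3 was well below the rest, and the difference was 0.22 (SE 0.12; limma adjusted p = 0.746). Without control 3 it was 0.13.

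Herpud1, a scaffold of the ligase complex whose ERSE-II is printed above, had 12.04, 12.02, 11.82 and 12.25 with hydrogen water, against 12.36, 12.48, 12.07 and 12.14 in controls, a difference of −0.23 (SE 0.13). Only hydrogen water 4 reached into the range of the controls. Edem2 and Edem1, which mark glycoproteins for removal by trimming mannose, differed by −0.22 (SE 0.15) and −0.14 (SE 0.11). The ligase Syvn1 (HRD1) differed by 0.01 (95% interval −0.33 to 0.35) and its adaptor Sel1l by −0.08 (SE 0.13). The other derlins, Derl1 and Derl3, differed by 0.05 (SE 0.10) and 0.11 (SE 0.15). The translocon subunit Sec61b had 8.58, 8.39, 8.30 and 7.73 with hydrogen water, against 8.98, 9.01, 8.19 and 8.55 in controls, a difference of −0.43 (SE 0.21; limma adjusted p = 0.709). Hydrogen water 4 was the lowest array and control 3 the lowest control. Its 3 probe sets differed by −0.43, −0.42 and −0.43; whether they cross-hybridise with one another or with copies of the gene was not tested.

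The members also differed between arrays of the same group. Hydrogen water 1 and hydrogen water 3 were low: 0 of 11 chaperones were above their own mean on either, against 7 on hydrogen water 2 and 9 on hydrogen water 4. Among controls, 11 of 11 chaperones were above their mean on control 2, 7 on control 1, 6 on control 3 and 5 on control 4. The median deviation of the chaperones from their means was −0.17, 0.03, −0.13 and 0.08 on hydrogen water 1 to 4, against 0.16, 0.26, 0.03 and −0.02 on controls 1 to 4. The groups overlapped in this measure.

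Of the 31 members, 21 had their highest hydrogen water value on hydrogen water 4, beside 29.2% of all genes, and 0 had it on hydrogen water 3, beside 20.6%. Control 2 gave the highest control value in 18 members, beside 20.4% of all genes. Control 3 gave the lowest control value in 18, beside 30.3%, but the highest in 4 (Canx, Pdia3, Pdia4 and Derl3). On hydrogen water 4, Sec61b was the only member at its lowest of all 8 arrays.

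**Figure D4:**
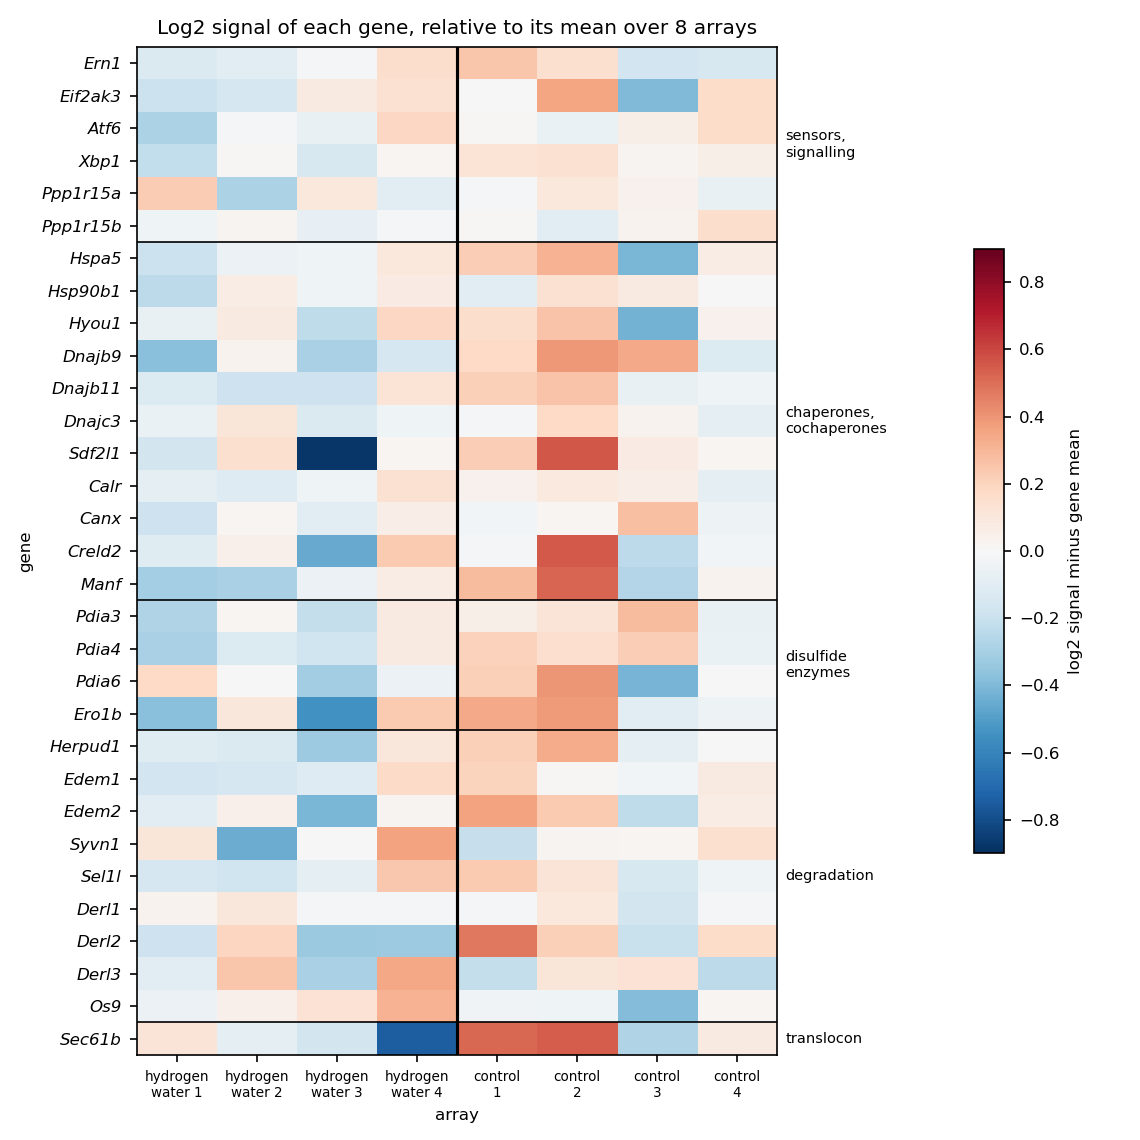
Log2 signal of each gene minus its mean over the 8 arrays, in rows by role, with hydrogen water arrays left of the line and controls right of it. Most chaperones are blue on hydrogen water 1 and 3 and red on controls 1 and 2, while control 3 is blue for Hspa5 and Hyou1 and red for Canx, Pdia3 and Dnajb9.

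Co-variation was measured on deviations from the mean of the own group, over 8 arrays, and is given as a description: the points share their arrays and the processing of each array. The median Pearson correlation over the 465 pairs of members was 0.31, beside 0.05 over all pairs of genes above the median level of 5.87, where all 31 members lie. Of the 465 pairs, 16.1% correlated above 0.7, beside 7.95% of those pairs of genes. Chaperones with disulfide enzymes had a median of 0.54, chaperones among themselves 0.42, degradation factors among themselves 0.36 and sensors among themselves −0.01. The median over members was lowest without hydrogen water 4 (0.23) and highest without control 3 (0.41).

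The genes did not form a single block. Hspa5 went with Manf (Pearson r = 0.92, Spearman rho = 0.95) and Hyou1 (r = 0.90, rho = 0.86), and with the sensor Eif2ak3 (r = 0.88, rho = 0.86). The 2 farthest arrays of a pair are those on which only 1 of its genes lay farthest from its median. That gene was Eif2ak3 in its pair with Hspa5, and elsewhere the gene named first. Without the 2 farthest arrays these correlations were 0.81 for Manf, 0.64 for Hyou1 and 0.52 for Eif2ak3. The correlation of Hspa5 with Hsp90b1 was 0.15 (rho = 0.33, and 0.38 without the 2 arrays farthest for Hspa5), and with Canx −0.47 (rho = −0.12). Without the 2 arrays on which Hspa5 lay farthest from its median, the value for Canx was 0.44, so its sign rested on those arrays. Canx and Pdia3, whose proteins work as a pair on glycoproteins, had the highest correlation of all 465 pairs (r = 0.94, rho = 0.98), and it was 0.91 without the 2 farthest arrays. Calr, the soluble relative of Canx, correlated with Pdia3 at 0.61 (rho = 0.62), and that was 0.24 without the 2 farthest arrays.

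Other high pairs crossed roles. Dnajb11 went with Herpud1 (r = 0.93, rho = 0.83), Ern1 with Sel1l (r = 0.93, rho = 0.88), and Xbp1 with Ero1b (r = 0.90, rho = 0.93). Leaving out the 2 farthest arrays gave 0.83, 0.90 and 0.96 for these pairs. The ligase Syvn1 and its adaptor Sel1l correlated at 0.35 (rho = 0.31) over 8 arrays and at −0.74 without the 2 farthest for Syvn1. The sign rested on those arrays, and leaving out the arrays farthest for Sel1l was not tried. The lowest medians with all other members belonged to Ppp1r15a (−0.30) and Ppp1r15b (−0.26), which correlated with the mean of the chaperones at −0.32 and −0.39.

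**Figure D5:**
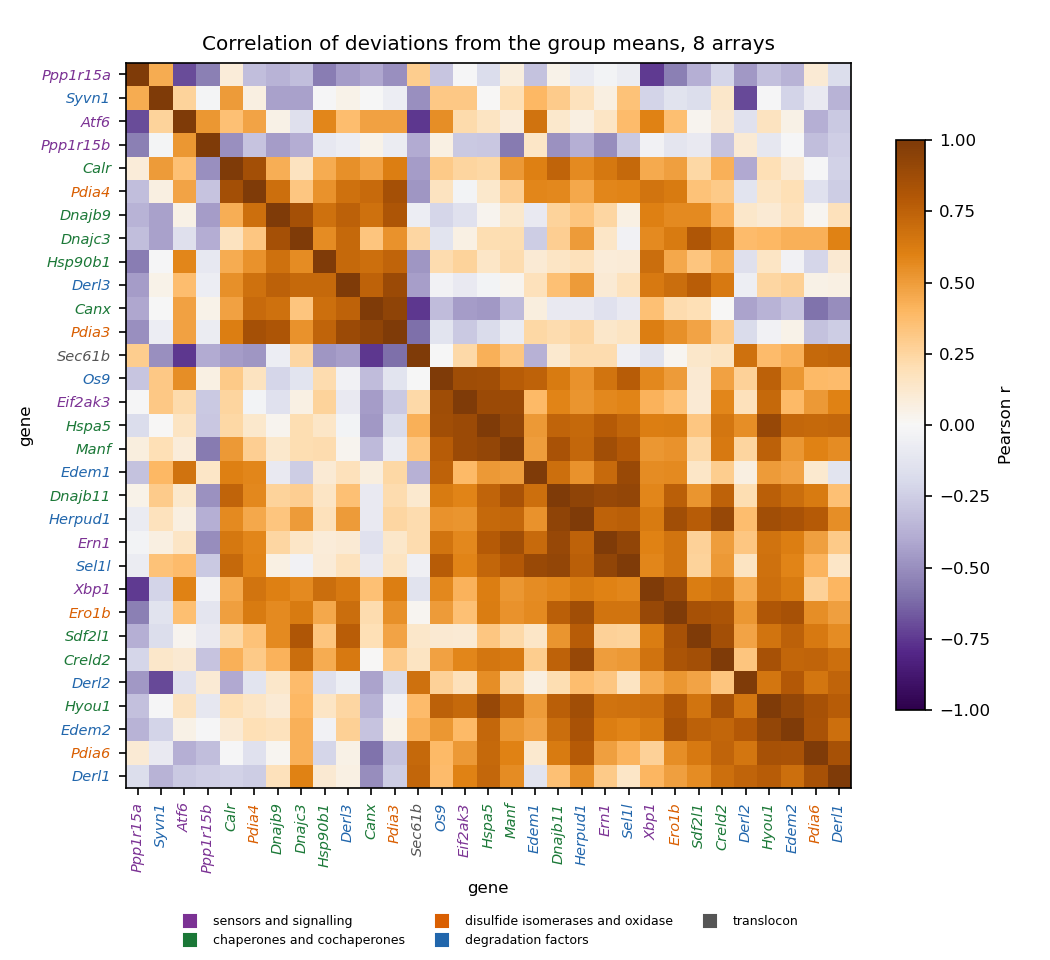
Pearson correlation between genes of their deviations from the group means over 8 arrays, ordered by similarity, with gene names coloured by role. Canx, Pdia3, Derl3, Hsp90b1, Dnajc3, Dnajb9, Pdia4 and Calr lie together near the upper left, and Hspa5, Manf, Hyou1, Herpud1, Edem2 and Creld2 lie in the block at the lower right.

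Outside the 31 genes, the 10 genes above the median level whose deviations were most like the mean of the chaperones, over the same 8 arrays, were Zc3h15 (r = 0.95), Edem3 (0.95), Abcb4 (0.94), Fgfr2 (0.94), Sec14l1 (0.94), Arfip2 (0.93), Rsf1 (0.93), Hmox1 (0.93), Naif1 (0.92) and Cep89 (0.92). Of these only Edem3, a mannosidase-like relative of Edem1 and Edem2, was on the list of other ER genes. Its log2 signals were 8.64, 8.87, 8.55 and 9.05 with hydrogen water, against 8.72, 8.96, 8.52 and 8.71 in controls. Hydrogen water 4 was its highest array, and the groups differed by 0.05 (SE 0.13). Among 9938 non-member genes above the median level the median correlation with the chaperone mean was 0.12, and among 90 other ER genes at that level it was 0.41.

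The wider pathway was read from a list of 101 other genes, of which 95 were measured. Mean signal was lower with hydrogen water in 66 of the 95 (69.5%), beside 51.3% of all genes and 48.5% of those above the median level. The 95 genes share the same arrays, so the 66 are not independent observations. Of the 95, 0 passed the adjusted threshold (limma), and the median difference was −0.06. An unadjusted p under 0.05 was reached by 6 genes (6.32%), beside 7.17% of all genes and 9.5% of those above the median level. Of the 1429 genes of the whole table at that p, 711 were lower. All 6 genes of the list were lower (6.32%), beside 3.57% of all genes that were both lower and at that p. These were Ubxn8 (−0.44, SE 0.16) and Selenos (−0.39, SE 0.17) of degradation, the signal peptidase subunit Spcs3 (−0.30, SE 0.11), Serp1 (−0.28, SE 0.11), which protects nascent chains at the translocon, Cnpy2 (−0.28, SE 0.11) and the thioredoxin-family protein Erp44 (−0.25, SE 0.10). Groups did not overlap in 4 genes (4.21%), beside 3.76% of all genes and 4.2% of those above the median level. All 4 (Erp44, Ubxn8, Uggt1 and Aup1) were lower with hydrogen water (4.21%), beside 2.01% of all genes both lower and without overlap. Of the 750 genes of the whole table without overlap, 400 were lower. The shares of the list in either direction, 6.32% and 4.21%, are near those of all genes. Uggt1, the glucosyltransferase that returns unfolded glycoproteins to calnexin, had 9.49, 9.47, 9.19 and 9.38 with hydrogen water, against 9.58, 9.60, 9.61 and 9.53 in controls, a difference of −0.20 (SE 0.10; limma adjusted p = 0.717). Its hydrogen water 3 was lowest, as for Sdf2l1.

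By function, 10 of 10 other chaperones and prolyl isomerases were lower in mean with hydrogen water (median −0.15), beside 51.3% of all genes. So were 9 of 11 other disulfide and redox enzymes (median −0.13), 11 of 14 translocation genes (−0.16) and 6 of 8 genes of oligosaccharyl transfer (−0.12). Glycoprotein folding genes were lower in 4 of 8 (−0.02), other degradation factors in 9 of 13 (−0.05) and genes of transport between ER and Golgi in 6 of 10 (−0.06). The PERK and ATF4 branch had a median of −0.02 over 9 genes, 6 of them lower. Its factors Atf4 and Ddit3 (CHOP) differed by −0.02 (SE 0.13) and −0.14 (SE 0.11). The asparagine synthetase gene Asns had 8.40, 7.32, 7.80 and 9.04 with hydrogen water, against 7.94, 7.76, 7.17 and 7.51 in controls, a difference of 0.54 (SE 0.30). Hydrogen water 4 and 1 were above all controls, and the other hydrogen water arrays lay among them. The other transducers, among them the hepatic factor Creb3l3 (0.11, SE 0.11), had a median of 0.02 over 12 genes.

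Marker genes of cells other than hepatocytes also differed in mean between the groups. All 12 Kupffer cell markers were higher in mean with hydrogen water, with summed linear signals of 1437 to 2485 with hydrogen water and 1166 to 1938 in controls. Of the 12, 4 had an unadjusted p under 0.05 (33.3%) and Clec4f had groups that did not overlap, beside 7.17% and 3.76% of all genes. All 8 sinusoidal endothelial markers were also higher, with sums of 2547 to 4059 with hydrogen water and 2231 to 3153 in controls. Of the 8, Stab1 (0.60, SE 0.15), Stab2 (0.56, SE 0.17) and Pecam1 (0.32, SE 0.10) had both an unadjusted p under 0.05 and groups that did not overlap (37.5%). No marker passed the adjusted threshold (limma, lowest adjusted p = 0.617). Pancreatic acinar cells are rich in ER chaperones, and 6 of 6 of their markers were lower in mean with hydrogen water, with sums of 211 to 230.1 against 227 to 293 in controls. Of these 6, only Cela2a was above the median level. Ctrb1 (−0.56, SE 0.20) had an unadjusted p under 0.05 (limma) and groups that did not overlap (1 of 6, 16.7%). The mean deviation of the 6 markers was −0.11, −0.05, −0.11 and −0.06 on hydrogen water 1 to 4. On controls 1 to 4 it was −0.10, 0.23, 0.12 and 0.08. The median deviation of the chaperones was −0.17, 0.03, −0.13 and 0.08 on hydrogen water 1 to 4. On controls 1 to 4 it was 0.16, 0.26, 0.03 and −0.02. Markers of B and plasma cells were lower in 4 of 7, and 1 of 7 was above the median level. Their sums were 153 to 176 with hydrogen water and 148 to 193 in controls. Of the 7, Jchain (0.20, SE 0.10), below that level, was higher and had groups that did not overlap (14.3%). Stellate cell markers were lower in 4 of 8 and cholangiocyte markers in 4 of 5. Of the 8 stellate markers, Des (−0.43, SE 0.17) had an unadjusted p under 0.05 by limma (12.5%). The part of these cells in the differences of the 31 genes was not tested.

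The 10 members with an exact ERSE had a median difference of −0.08, the 16 searched members without one −0.19, and the 5 that were not in the promoter table −0.05. These medians were not compared by a test. Members with an ERSE ranged from −0.29 (Ero1b) to 0.11 (Derl3), and 0 of them had an unadjusted p under 0.05 by limma. Dnajb9 and Pdia4, the members at that p, were both in the promoter table and held no exact ERSE in this window.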

How the data were processed

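The authors deposited log2 signals for 8 liver arrays. Per the submitters' processing notes, Expression Console (Affymetrix) made them. Its version, the normalization and any genome build: not given in the sources used here. The values themselves showed the log2 scale. RNA was extracted with RNeasy Mini and labelled with the Ambion WT Expression kit, per the labels' protocols. Titles gave the groups. The treatment text is the same for all 8 samples and was not used to assign the groups.

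Of 35556 probe sets, 21789 had 1 gene symbol, 1621 several and 12146 none here. Symbols were updated through Entrez identifiers to RefSeq (GRCm38.p6, used for names and promoters), so that the listed Ero1lb is Ero1b. Each of 19938 genes was read from its brightest probe set by mean. limma 3.58.1 in R 4.3.3 (lmFit, eBayes, two-sided, no covariate) was fitted to all genes, with Benjamini-Hochberg adjustment over them. Residual and prior degrees of freedom were 6 and 5.88. The fit was tested on simulated data with 200 changed genes among 19938, each gene varying independently. At an adjusted p under 0.05 (limma) it recovered 32.8% of changes of 0.5 log2 and 99.2% of changes of 1.0 log2. No filter on level was applied. Array medians lay between 5.27 and 5.37, and correlations between arrays from 0.988 to 0.995; the number of arrays limits the precision.

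The members and the lists were chosen with earlier results of these data known. Values on every array were given for Ern1, Eif2ak3, Atf6, Xbp1, Hspa5, the lowest and highest difference of each role, and members with an unadjusted p under 0.05 or groups that do not overlap; Manf and Herpud1 were added after their values were seen. Other ER genes were named at that p, without overlap or at the end of their list; Atf4, Ddit3 and Creb3l3 were added for their roles. Alternatives were quantile normalization or median centring, averaging probe sets, dropping dim ones or adding those with several symbols, array weights, a robust trended variance, the replicate block and leaving out arrays. Leaving out both control 3 and hydrogen water 4 was chosen after seeing the data. Proteins were not analysed here. Figures used matplotlib 3.10.9 (Python 3.11.15).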

Additional observations from a re-analysis of the deposited data

Results flagged for a closer look

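Each group of 4 arrays of each member was searched for a single array far from the other 3 (Dixon's test), 62 groups in all, of which chance flags about 1 in 20. An array stood apart in 2 of them, beside 3.1 expected at that rate. Edem1 was 10.94 on hydrogen water 4, against 10.59 to 10.65 on the other hydrogen water arrays. Os9 was 10.47 on control 3, against 10.82 to 10.88 on the other controls.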

How the results depend on the processing

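Direction held in 242 of 255 recomputed differences of Ern1, Eif2ak3, Atf6, Xbp1, Ppp1r15a, Hspa5, Hyou1, Dnajb9, Sdf2l1, Pdia4, Pdia6, Ero1b, Derl2, Os9 and Sec61b. The other members were not part of this count. The 13 reversals were all in genes near 0: Hyou1 was 0.00015 with quantile normalization and −0.16 to 0.068 over the fits that left out 1 array, Ppp1r15a was 0.01 (0.0077) with array weights, 0.01 (0.0086) without both control 3 and hydrogen water 4 and −0.11 to 0.063 with 1 array left out, and over the fits with 1 array left out Ern1 ran from −0.10 to 0.036, Eif2ak3 from −0.20 to 0.046 and Pdia6 from −0.25 to 0.024. The count of members at an unadjusted p under 0.05 was 2 of 31, beside 7.17% of all genes. With the share of fitted genes in brackets, it was 1 with the filter on dim probe sets (7.88%) and 1 with quantile normalization (8.86%). It was 11 with array weights (10.4%), 12 without both arrays (7.55%) and 1 to 7 with 1 array left out (4.8% to 9.22%). With the replicate number as a block it was 4 of 31 (Dnajb9, Sdf2l1, Derl2 and Sec61b), beside 6.59% of all genes. The labels state no pairing. Over all genes, deviations from the group means correlated at −0.06, 0.06, −0.03 and −0.16 between same-numbered arrays. Such deviations balance out within each group, so these values cannot decide whether the numbers pair the samples. Members without overlap numbered 1, beside 3.76% of all genes, and 0 with quantile normalization, beside 5.03%. They numbered 9 without both arrays, beside 12.4%, and 1 to 5 with 1 array left out, beside 5.69% to 9.43%. Genes of the whole table with an adjusted p under 0.05 numbered 0, 3 without both arrays and 0 to 1 with 1 array left out. Without both arrays the median difference was −0.24 over all members, −0.16 over sensors, −0.30 over chaperones and −0.24 over degradation factors; with 1 array left out it ran from −0.23 (without control 3) to −0.033 (without control 2) over chaperones. Quantile normalization and median centring each shifted the median of all genes to −0.04; lower members then numbered 26 and 28, beside 60.6% and 62.1% of all genes. The median correlation of pairs was 0.24 with quantile normalization and 0.23 to 0.41 with 1 array left out. The promoter count of 10 was 18 for CCACG and 0 for the UPRE core. The causes were not tested, beyond the fewer arrays or genes that a setting uses. Differences are limited by 4 arrays a group: the median width of the 95% intervals was 0.55.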

Other observations

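Beyond the 31 members, 25 genes held an exact ERSE in the 250 bases before a start, and 10 of them were measured here. Acacb encodes an acetyl-CoA carboxylase and Acnat2 belongs to an acyltransferase family, while Alg12 adds mannose to the glycan precursor in the ER and Calr4 is a calreticulin relative. Only 4 of the 10 were above the median level. With hydrogen water 5 of the 10 were lower in mean and 5 higher, and 0 passed the adjusted threshold (limma). An unadjusted p under 0.05 was reached by 1 of the 10 (10%), which was higher, beside 7.17% of all genes. Groups did not overlap in 2 of the 10 (20%), both higher, beside 3.76% of all genes. Acacb differed by 0.48 (SE 0.14; limma adjusted p = 0.631), Pan2 by 0.22 (SE 0.13), Alg12 by −0.10 (SE 0.13) and Acnat2 by 0.05 (SE 0.16). These 4 genes were chosen after their values were seen.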
